A study of Mus musculus with 24 samples.

Results

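The 10 genes described here encode proteoglycans, matricellular proteins and other proteins of the extracellular matrix, namely Prelp, Dcn, Bgn, Lum, Fbln7, Fndc1, Postn, Thbs2, Sulf2 and Mgp. They were followed in C2C12 cells, an established mouse myoblast line that fuses into myotubes after a change of medium. All probe sets whose annotated symbol was one of these names were taken, which gave 14 probe sets of all 10 genes on the MA array design and 5 probe sets of 4 genes on the MB design, out of 22626 and 22511 probe sets in all, or 10 of 18193 named genes over both designs. The cells had been transduced with the pSuperR vector carrying a short hairpin RNA (shRNA) against p68, the RNA helicase encoded by Ddx5, or with the empty vector, and were kept in differentiation medium (DM) or growth medium (GM). The 4 groups were thus shRNA cells in DM, vector cells in DM, shRNA cells in GM and vector cells in GM, with 3 arrays each per design and no untransduced cells. The sample material was total RNA. The labels do not state whether the replicates are separate cultures, whether the transduced cells were 1 clone or a pool, or the time in each medium. The p-values then measure the spread between arrays, which may be technical.

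Small leucine-rich proteoglycans such as decorin (Dcn), biglycan (Bgn), lumican (Lum) and Prelp bind collagen fibrils and hold growth factors in the matrix, and Prelp also binds the heparan sulfate chains of basement membranes. Matricellular proteins such as periostin (Postn) and thrombospondin 2 (Thbs2) carry signals between matrix and cells more than they bear load. Fbln7 encodes a secreted glycoprotein of the fibulin family and Fndc1 a protein with fibronectin type III domains. Sulf2 is an extracellular enzyme that removes sulfate groups from heparan sulfate and so changes which growth factors it holds, and matrix Gla protein (Mgp) is a vitamin K-dependent inhibitor of calcification that binds bone morphogenetic proteins. In muscle these proteins belong to the connective tissue around fibres and to the surroundings of muscle precursor cells.

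The genes were chosen by their earlier measured signals on these same arrays, in both the construct and the medium comparisons, so all their values below, in all comparisons, are a description and not a test. A gene is said to have passed, risen or fallen where limma's adjusted p, over all probe sets tested on a design, was under 0.05. Changes are log2 differences of signal + 15, ± standard error (SE), which understates the change of dim probe sets. Signals of different probe sets are not comparable as levels. Groups of 3 arrays can also separate by chance, and the share of all probe sets that do so is not given. A lack of overlap below is therefore a description and is not read as a call. The fit took probe sets with a signal of 30 or more in 3 or more of the 12 arrays of a design, which held for 13 of the 14 MA and all 5 MB probe sets. Lum did not pass this filter: its signals were 28.52, 16.42 and 11.08 in shRNA cells in DM and 23.28, 43.04 and 29.63 in vector cells in DM. In GM they were 16.9, 12.26 and 19.48 in shRNA cells, against 15.56, 29.14 and 10.23 in vector cells. Lumican was therefore dim, reaching 30 on 1 array only, with overlapping groups, and no change was fitted for it.

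**Figure D1:**
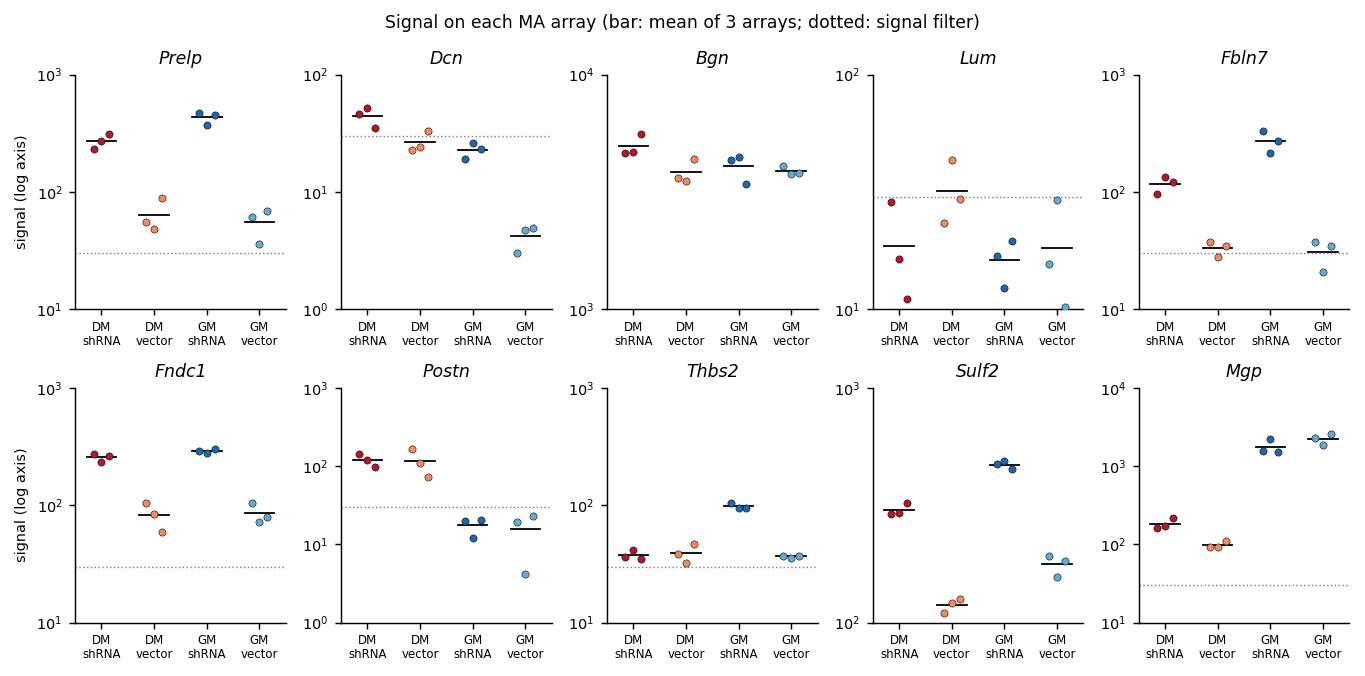
Signal of each gene's leading MA probe set (vertical log axes) on the 12 arrays; each point is 1 array, each bar the mean of 3, and the dotted line the signal filter of 30, where it lies within the axis. Prelp, Fbln7, Fndc1 and Sulf2 have all shRNA points above all vector points in both media, while Postn and Mgp separate the media.

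On the MA arrays 5 of the 9 tested genes were higher in shRNA than in vector cells in DM, 6 in GM, and 0 were lower in either medium. The share of all MA probe sets that passed in either direction was 16.9% in DM and 6.56% in GM; since the genes were chosen with these results known, nothing is read from the comparison of shares. The median change of the 9 genes was 0.82 in DM and 1.13 in GM, beside 0.05 and 0.04 over all tested probe sets. The choice of the genes bears on these medians too, so nothing is read from that contrast either. Prelp, Fbln7, Fndc1 and Sulf2 rose in both media. Mgp passed in DM but not in GM, and Dcn and Thbs2 passed in GM but not in DM. For Mgp and Thbs2 the difference between the media also passed, and for Dcn it did not (-0.46 ± 0.28).

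Sequence before the start of the gene is shown for the genes that were higher with the shRNA in both media, and for Thbs2, which was higher in GM alone. The windows of Bgn and Postn, which passed with the shRNA in neither medium, are given as counts only. Promoter sequence of RefSeq (GRCm38.p6) matched 7 of the 10 genes, with 9 annotated starts. The letters run 5' to 3' on the strand of the gene and cover the 250 bases before the first listed start. Capitals mark matches on either strand to the E-box CANNTG, which myogenic factors of the basic helix-loop-helix family bind, to the AP-1 motif TGANTCA, to the GC box GGGCGG or to the TATA box TATAAA.
Prelp (chr1:133921402-133921651, minus strand): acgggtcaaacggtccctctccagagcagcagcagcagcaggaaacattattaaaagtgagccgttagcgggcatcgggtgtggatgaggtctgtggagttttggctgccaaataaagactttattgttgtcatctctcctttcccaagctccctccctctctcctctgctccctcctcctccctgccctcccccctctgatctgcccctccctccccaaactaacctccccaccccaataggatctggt
Fbln7 (chr2:128863682-128863931, plus strand): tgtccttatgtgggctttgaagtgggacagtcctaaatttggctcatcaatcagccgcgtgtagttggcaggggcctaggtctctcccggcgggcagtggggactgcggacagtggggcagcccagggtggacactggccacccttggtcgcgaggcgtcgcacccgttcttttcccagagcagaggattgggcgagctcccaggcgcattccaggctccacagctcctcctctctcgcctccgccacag
Fndc1 (chr17:7827303-7827552, minus strand): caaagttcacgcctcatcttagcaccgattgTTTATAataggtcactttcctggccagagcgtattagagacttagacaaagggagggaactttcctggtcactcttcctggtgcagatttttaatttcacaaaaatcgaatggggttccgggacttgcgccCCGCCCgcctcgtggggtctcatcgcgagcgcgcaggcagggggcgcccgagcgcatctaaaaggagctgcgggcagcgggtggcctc
Sulf2 (chr2:166155684-166155933, minus strand): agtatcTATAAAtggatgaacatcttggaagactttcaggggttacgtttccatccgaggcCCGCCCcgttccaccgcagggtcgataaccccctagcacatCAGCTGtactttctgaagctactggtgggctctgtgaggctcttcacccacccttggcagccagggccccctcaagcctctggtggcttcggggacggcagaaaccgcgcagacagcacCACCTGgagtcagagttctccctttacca
Thbs2 (chr17:14694263-14694512, minus strand): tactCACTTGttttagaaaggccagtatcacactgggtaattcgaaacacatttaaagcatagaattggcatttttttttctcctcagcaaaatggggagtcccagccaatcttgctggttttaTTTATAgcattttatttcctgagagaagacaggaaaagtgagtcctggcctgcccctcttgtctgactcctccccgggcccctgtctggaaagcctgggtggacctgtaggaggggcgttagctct
Of all 32817 windows of this length, 66.2% hold CANNTG, 6.75% TGANTCA, 32.7% GGGCGG and 12.4% TATAAA. The Prelp and Fbln7 windows hold 0 matches to any of them. The Fndc1 window has 1 GGGCGG and 1 TATAAA match, both on the opposite strand, and no CANNTG. Sulf2 has 2 CANNTG matches in each of its 2 listed windows, and Thbs2 has 1. The Sulf2 window shown also has 1 GGGCGG and 1 TATAAA match, and the Thbs2 window 1 TATAAA match. The Bgn window has 1 CANNTG and 3 GGGCGG matches. Of the 2 Postn windows, the first has 0 matches and the second 1 TATAAA match. No matches overlap in the 5 windows shown, and a match is a string of letters only.

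Prelp had the largest change of the 9 tested genes with the shRNA. In DM its leading probe set read 234.1, 271.2 and 312.1 in shRNA cells and 55.35, 48.36 and 88.29 in vector cells, a change of 1.89 ± 0.21. Its GM signals were 472, 371 and 453.8 in shRNA cells, against 61.32, 36.02 and 68.43 in vector cells, a change of 2.69 ± 0.21. Neither medium showed any overlap between the constructs. The suffix s of this probe set marks probes that can match more than 1 transcript. Another Prelp probe set without that suffix gave 1.93 ± 0.23 in DM and 2.47 ± 0.23 in GM. Its signals were 51.28, 54.64 and 63.22 in shRNA cells and 3.73, 3.258 and 3.95 in vector cells in DM, and in GM 121.6, 55.03 and 86.94 in shRNA cells and 2.957, 3.071 and 2.541 in vector cells. The vector signals of this other probe set lie far under the pseudocount, so it passed the filter through the shRNA arrays alone.

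Fbln7 had signals of 95.27, 135.2 and 120.4 in shRNA cells in DM, against 37.7, 27.75 and 34.86 in vector cells. In GM it reached 327.9, 215 and 273.7 in shRNA cells, against 37.41, 20.68 and 34.4 in vector cells. The changes were 1.44 ± 0.19 in DM and 2.65 ± 0.19 in GM, and the shRNA effect was smaller in DM by 1.21 ± 0.27. The shRNA arrays of GM were thus the highest and both vector groups were low and overlapped each other. Fndc1 changed by a like amount in both media, with 273.3, 233.9 and 264.9 in shRNA cells and 104.9, 84.12 and 58.71 in vector cells in DM (1.51 ± 0.17). Its GM signals were 290.3, 279.4 and 301.9 in shRNA cells and 105.2, 71.5 and 79.26 in vector cells (1.62 ± 0.17). A different Fndc1 probe set, on the MB arrays, did not follow. That probe set read 607.1, 348.2 and 313.8 in shRNA cells and 437.9, 543.1 and 550.6 in vector cells in DM (-0.31 ± 0.31). In GM the same probe set read 199.5, 289.6 and 604.7 in shRNA cells and 661, 634 and 613.2 in vector cells (-0.92 ± 0.31), and neither change passed, although the GM arrays did not overlap. The direction of Fndc1 with the shRNA therefore rests on the MA probe set.

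Sulf2 was the only one of these genes with a passing probe set on both designs. On MA it read 291.2, 292.5 and 322.7 in shRNA cells and 109.9, 121.6 and 125.8 in vector cells in DM (1.24 ± 0.11). In GM it read 474.1, 487.6 and 452.2 in shRNA cells and 192, 155.8 and 183.1 in vector cells (1.34 ± 0.11). The shRNA and vector arrays did not overlap in either medium, and the arrays of each group lay close together. The brighter MB probe set read 2170, 3224 and 3188 in shRNA cells and 1348, 897.9 and 1363 in vector cells in DM (1.24 ± 0.19). Its GM signals were 4449, 5036 and 3848 in shRNA cells and 2332, 2232 and 2242 in vector cells (0.96 ± 0.19). Both changes passed, on a design where 1.17% of all probe sets passed in DM and 0.275% in GM. Leaving out any 1 of the 6 GM arrays ended the GM call (changes of 0.86 to 1.06, adjusted p = 0.0594 to 0.176 in limma). The suffix x of this probe set marks probes that may also bind other transcripts. The other MB probe set of Sulf2 did not pass with the shRNA in DM (0.995 ± 0.35) or in GM (-0.12 ± 0.35). In DM it had 359.4, 310.6 and 259.5 in shRNA cells, against 219.1, 57.59 and 233.5 in vector cells, the low value being that of replicate 2, the MB array least like its own group. Without that array the DM change was 0.42.

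**Figure D2:**
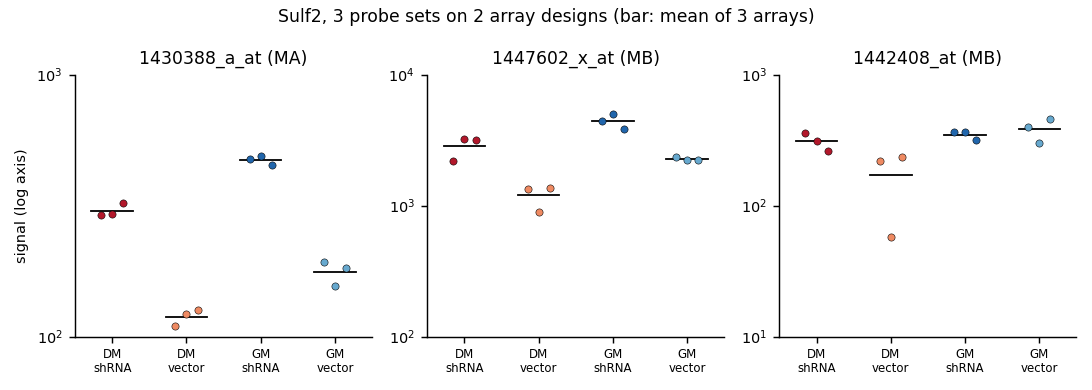
Signal of the 3 Sulf2 probe sets (vertical log axes), 1 on MA and 2 on MB; each point is 1 array and each bar the mean of 3. The MA one and the first MB one have shRNA above vector in both media and DM below GM within each construct, with MA means of 302.1 for shRNA and 119.1 for vector cells in DM, and of 471.3 for shRNA and 177 for vector cells in GM; the last shows 1 low vector array in DM.

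Thbs2 rose with the shRNA in GM and not in DM. In GM its leading probe set read 104.8, 95.02 and 94.14 in shRNA cells and 37.1, 35.41 and 37.22 in vector cells (1.13 ± 0.15). The DM signals were 36.51, 41.78 and 35.11 in shRNA cells and 38.14, 31.86 and 46.88 in vector cells (-0.02 ± 0.15). The shRNA cells in GM alone stood above the rest, and the difference between the media was -1.15 ± 0.22. The other MA probe set had 79.86, 63.64 and 75.82 in shRNA cells and 32.47, 52.11 and 51.38 in vector cells in GM (0.56 ± 0.24), which did not pass, though the arrays did not overlap. Its fall in DM in shRNA cells passed (-0.67 ± 0.24) but was lost without any 1 of 8 arrays (-0.75 to -0.615, adjusted p = 0.051 to 0.123 in limma). With all arrays the difference between the media did not pass at this probe set (-0.58 ± 0.34). Without vector replicate 3 of DM, this probe set passed in GM (0.56, adjusted p = 0.0449 in limma) and for the difference between the media (-0.90, adjusted p = 0.026 in limma). The MB probe set was noisier, with 148.1, 73.98 and 73.28 in shRNA cells and 114.6, 22.7 and 75.37 in vector cells in GM (0.51 ± 0.53).

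Among the other small leucine-rich proteoglycans, Dcn was dim. It had 46.48, 51.98 and 35.03 in shRNA cells and 22.81, 24.34 and 32.98 in vector cells in DM, a change of 0.51 ± 0.20 that did not pass although the arrays did not overlap. In GM it had 19.01, 26.35 and 23 in shRNA cells and 3.042, 4.736 and 4.885 in vector cells, a change of 0.97 ± 0.20 that passed. Every GM array of decorin was under the signal filter, so this gene was tested only because of its DM arrays, and its GM change lies near the pseudocount. Its MB probe set did not pass and ran the other way, at -0.66 ± 0.55 in DM, where the arrays overlapped. In GM it read 20.87, 21.72 and 13.21 in shRNA cells and 39.28, 50.85 and 92.96 in vector cells (-1.12 ± 0.55), which did not overlap. Bgn, in contrast, was bright in all groups. It read 4639, 4697 and 5602 in shRNA cells and 3639, 3507 and 4373 in vector cells in DM (0.38 ± 0.12), and in GM 4333, 4458 and 3406 in shRNA cells and 4069, 3766 and 3805 in vector cells (0.06 ± 0.12). Biglycan did not pass in either medium, although its DM arrays did not overlap. Its other MA probe sets gave 0.32 ± 0.15 and 0.24 ± 0.13 in DM and -0.04 ± 0.15 and -0.04 ± 0.13 in GM. Leaving out vector replicate 3 of DM, the MA array least like its own group, made all 3 biglycan probe sets pass in DM, at 0.47, 0.45 and 0.41 (adjusted p = 0.0149, 0.0379 and 0.0108 in limma), and leaving out shRNA replicate 4 of GM made the first pass (0.375, adjusted p = 0.0328). With quantile normalization all 3 biglycan probe sets passed in DM.

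Mgp was higher with the shRNA in DM, at 163.5, 171.6 and 217.6 in shRNA cells and 92.58, 91.06 and 109.1 in vector cells (0.82 ± 0.16). In GM the signals were 1569, 2212 and 1513 in shRNA cells and 2311, 1860 and 2576 in vector cells (-0.36 ± 0.16), which overlapped and did not pass. The shRNA effect was higher in DM than in GM by 1.17 ± 0.23. Postn did not change with the shRNA beyond its spread, with 143.3, 119.5 and 96.74 in shRNA cells and 167.2, 111 and 72.18 in vector cells in DM (0.08 ± 0.29). Its GM change was 0.14 ± 0.29, from signals of 12.08 to 20.61 in shRNA cells and 4.204 to 23.28 in vector cells. The arrays of both constructs overlapped in both media.

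**Figure D3:**
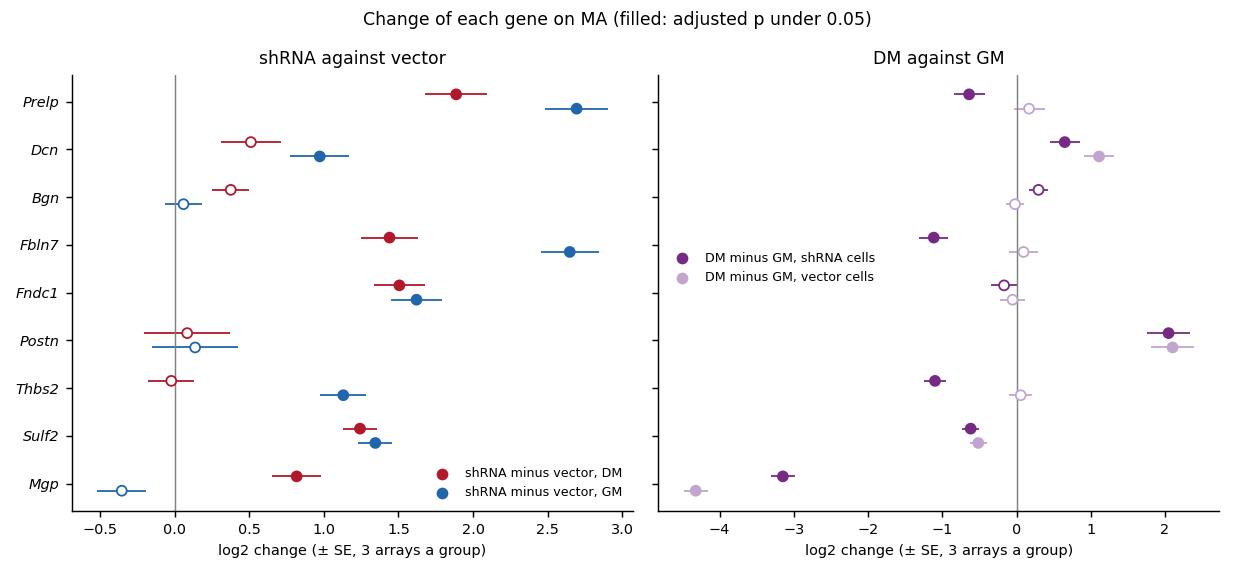
Log2 change ± SE of the 9 tested genes on MA, shRNA minus vector at left and DM minus GM at right; 3 arrays per group, filled points passed. With the shRNA, Prelp and Fbln7 reach 2.69 and 2.65 in GM, and Postn lies at 0.08 in DM; between media, Mgp lies at -4.32 in vector cells and Postn at 2.10.

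Between media, 7 of the 9 genes passed in shRNA cells (2 higher and 5 lower in DM) and 4 in vector cells (2 higher and 2 lower), with 33.9% and 49.3% of all MA probe sets passing. These comparisons share their arrays with those above. On MA periostin and decorin rose in DM in both constructs and Sulf2 and Mgp fell. Postn had signals of 96.74 to 143.3 in shRNA cells in DM and 12.08 to 20.61 in shRNA cells in GM, a change of 2.05 ± 0.29, and in vector cells 72.18 to 167.2 in DM and 4.204 to 23.28 in GM, a change of 2.10 ± 0.29. All DM arrays of periostin lay above all GM arrays. Every GM signal of Postn was under 30, so it passed the filter through its DM arrays alone, and the size of its change depends on the pseudocount. Dcn rose by 0.65 ± 0.20 in shRNA and 1.11 ± 0.20 in vector cells on MA, and it too passed the filter through DM arrays alone. The MB probe set of Dcn did not pass in shRNA cells (0.06 ± 0.55) or in vector cells (-0.405 ± 0.55). The decorin call in shRNA cells was lost without replicate 1 or 2 of DM or replicate 2 or 4 of GM (0.56 to 0.655, adjusted p = 0.0512 to 0.0856 in limma).

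Matrix Gla protein had the largest medium effect of the 9 tested genes. Its mean signal was 184.2 ± 29.15 in DM and 1765 ± 388.1 in GM in shRNA cells (SD, n = 3), a change of -3.15 ± 0.16. In vector cells it was 97.59 ± 10.02 in DM and 2249 ± 362 in GM, a change of -4.32 ± 0.16. The fall was thus smaller in shRNA cells, which is the same difference of 1.17 ± 0.23 as above. Sulf2 fell by 0.62 ± 0.11 in shRNA cells and 0.52 ± 0.11 in vector cells on MA, and its brighter MB probe set changed by -0.65 ± 0.19 in shRNA cells and -0.93 ± 0.19 in vector cells. On MB the change in shRNA cells did not pass and that in vector cells did, with 4.85% and 9.21% of all MB probe sets passing. Without vector replicate 2 or 3 of DM the shRNA change passed at -0.65 (adjusted p = 0.0219 and 0.0433 in limma). The other MB probe set of Sulf2 passed in vector cells (-1.28 ± 0.35), a call that was lost without vector replicate 2 of DM or vector replicate 1 or 3 of GM (-1.25 to -0.71, adjusted p = 0.0821 to 0.111). In shRNA cells that probe set did not pass (-0.17 ± 0.35).

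In shRNA cells Fbln7 fell in DM by 1.11 ± 0.19, Thbs2 by 1.10 ± 0.15 and Prelp by 0.64 ± 0.21. None of these changed in vector cells past the threshold, where the values were 0.09 ± 0.19 for Fbln7, 0.06 ± 0.15 for Thbs2 and 0.17 ± 0.21 for Prelp. The difference between constructs passed for Fbln7 and Thbs2, as given above, and not for Prelp (-0.81 ± 0.30). The Prelp call in shRNA cells was lost without replicate 1 or 2 of DM or replicate 2 or 4 of GM (-0.64 to -0.54, adjusted p = 0.067 to 0.11 in limma). The other Prelp probe set did not pass in shRNA cells (-0.48 ± 0.23), and its arrays overlapped. Fndc1 did not pass in either construct (-0.17 ± 0.17 in shRNA and -0.05 ± 0.17 in vector cells). Bgn did not pass at the leading probe set (0.30 ± 0.12 in shRNA and -0.02 ± 0.12 in vector cells), while another one passed in shRNA cells (0.50 ± 0.15). That call was lost without shRNA replicate 3 of DM or 4 of GM (0.37 to 0.41, adjusted p = 0.0703 to 0.0784 in limma). For the difference of the shRNA effect between the media, 3 of 9 genes passed (Mgp higher, Fbln7 and Thbs2 lower in DM), with 9.95% of all MA probe sets passing. On MB 0 of 4 genes passed, where 0.389% of all did.

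**Figure D4:**
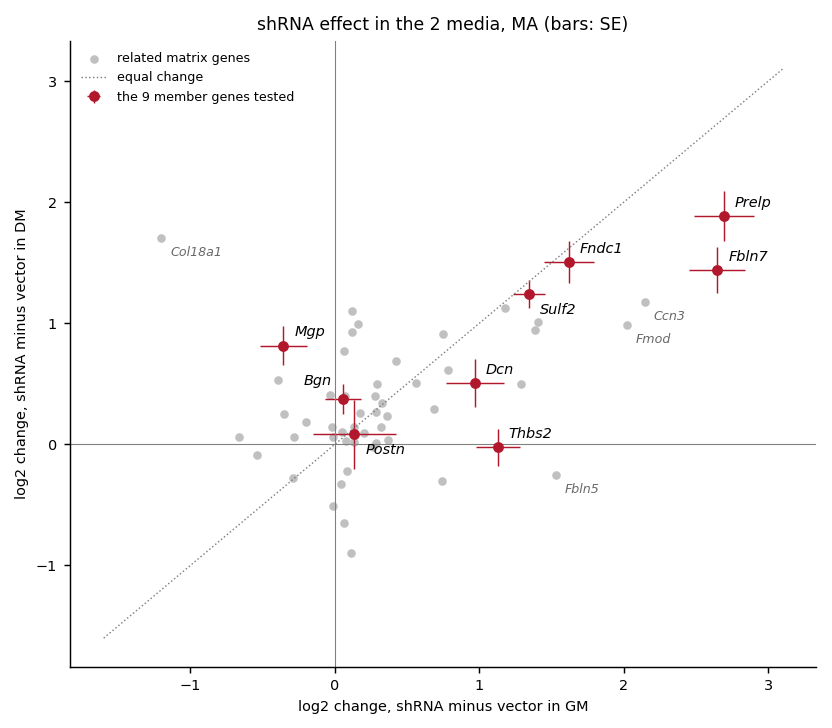
Log2 change with the shRNA in DM (vertical axis) against GM (horizontal axis) on MA, for the 9 genes with SE bars (red) and the 49 tested related matrix genes (grey); the dotted line marks equal change. Fndc1 (1.62 and 1.51) and Sulf2 (1.34 and 1.24) lie near the line, Thbs2 and Fbln7 below it and Mgp above it.

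The order of the 4 groups by mean signal grouped the genes. For Prelp and Fbln7 it ran from shRNA cells in GM over shRNA cells in DM to the vector cells, whose DM and GM arrays overlapped. For Sulf2 on MA it was shRNA cells in GM, shRNA cells in DM, vector cells in GM and vector cells in DM, with no overlap between neighbours. Fndc1 had shRNA cells of GM and DM above vector cells of GM and DM, with overlap between the vector groups; the lowest shRNA array in GM (279.4) lay above the highest in DM (273.3). Mgp ran from vector cells in GM and shRNA cells in GM, which overlapped, to shRNA cells in DM and then vector cells in DM.

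The 2 other genes with the highest Pearson correlation to each leading probe set over the 12 MA arrays were looked up. This r is a description: the 12 arrays fall into 4 groups, so it mostly follows the group means. Prelp was most like Ccn3, a matricellular protein of the CCN family (r = 0.984), and Fbln7 (0.975). Fbln7 was also most like Aoc3, an amine oxidase (0.978). Decorin was most like the collagen VI chains Col6a1 (0.973) and Col6a2 (0.968). Thbs2 was nearest to the lipid droplet gene Plin4 (0.948) and lipoprotein lipase, Lpl (0.947). Lpl changed by 1.92 in GM and 0.03 in DM with the shRNA. Mgp was nearest to the water channel Aqp1 (0.995) and the nucleotidase Nt5c (0.991), periostin to Rtn4 (0.981) and the ryanodine receptor Ryr3 (0.980), Sulf2 to Rab2b (0.979) and Tpp1 (0.978), Fndc1 to Bicc1 (0.954) and Aoc3 (0.951), and biglycan to Psma5 (0.909) and Uox (0.908).

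Related matrix genes were taken from 7 lists by role, of which 72 of 93 genes were on MA and 49 passed the filter. These lists were drawn up with earlier results of these arrays known. With the shRNA in DM 16 of the 49 rose and 3 fell, and in GM 10 rose and 1 fell. Their median change was 0.25 in DM and 0.16 in GM, beside 0.05 and 0.04 over all probe sets, of which 16.9% passed in DM and 6.56% in GM. The counts per list that follow rest on few genes and are a description. Of 3 tested small leucine-rich proteoglycans outside the 10 genes, 2 rose in both media. Fibromodulin (Fmod), which binds collagen, averaged 97.19 ± 5.64 in shRNA cells and 42.9 ± 16.31 in vector cells in DM (SD, n = 3; 0.99 ± 0.20, adjusted p = 0.0028 in limma), and changed by 2.02 ± 0.20 in GM (adjusted p = 3.9e-05). Osteomodulin (Omd) rose by 0.94 ± 0.28 in DM and 1.38 ± 0.28 in GM, but its call in DM was lost without any 1 of the 3 shRNA arrays or vector replicate 3 (0.71 to 0.95, adjusted p = 0.0692 to 0.0851). Omd passed the filter through shRNA arrays alone.

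Of 7 other secreted proteoglycans 3 rose with the shRNA in DM, and in GM 0 rose and 1 fell. Of all MA probe sets 16.9% passed in DM and 6.56% in GM. Col18a1, a basement membrane collagen with heparan sulfate chains and the source of endostatin, did both. It averaged 596.1 ± 62.02 in shRNA cells and 172.9 ± 23.96 in vector cells in DM (SD, n = 3; 1.70 ± 0.12, adjusted p = 8.19e-07), but fell to 350.1 ± 30.45 in shRNA cells, against a mean of 822.5 in vector cells, in GM (-1.20 ± 0.12, adjusted p = 5.75e-05). The difference between media was 2.90 ± 0.17 (adjusted p = 5.93e-07 in limma). The testican Spock2 rose by 0.93 ± 0.19 in DM (adjusted p = 0.00313). Versican (Vcan) rose by 0.77 ± 0.22, and its call was lost when any of 3 DM arrays was left out, namely shRNA replicates 1 and 2 and vector replicate 3 (0.57 to 0.70, adjusted p = 0.0721 to 0.117).

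Of 9 cell-surface proteoglycans 3 rose in DM and 1 in GM with the shRNA. Beside this and the next count, 16.9% of all MA probe sets passed in DM and 6.56% in GM. Syndecan 3 (Sdc3) was higher in both, with a log2 change of 1.13 ± 0.12 in DM (adjusted p = 1.3e-05 in limma) and a GM change of 1.18 ± 0.12 (adjusted p = 3.9e-05). The glypican Gpc6 (0.69 ± 0.15) and syndecan 1 (Sdc1, 0.53 ± 0.11) rose in DM. Of 12 matricellular proteins 2 rose and 1 fell in DM, and 4 rose in GM. Ccn3 averaged 42.53 ± 0.98 in shRNA cells and 10.64 ± 3.24 in vector cells in DM (SD, n = 3; 1.17 ± 0.21, adjusted p = 0.0014) and changed by 2.15 ± 0.21 in GM (adjusted p = 3.9e-05). It passed the filter through shRNA arrays alone. Thrombospondin 1 (Thbs1), the relative of Thbs2, rose in GM (0.75 ± 0.13, adjusted p = 0.0043) and had a lower shRNA effect in DM than in GM by 1.05 ± 0.19 (adjusted p = 0.00281 in limma), as Thbs2 had. Ccn2, connective tissue growth factor, fell in DM by 0.65 ± 0.15. Smoc2 rose by 1.01 ± 0.31 in DM, a call lost without any 1 of the 3 shRNA arrays or vector replicate 1 or 2 of DM (0.575 to 1.07, adjusted p = 0.0542 to 0.134 in limma). In GM it rose by 1.41 ± 0.31, a call lost on leaving out any of 3 GM arrays, shRNA replicates 2 and 4 and vector replicate 3 (1.26 to 1.38, adjusted p = 0.0522 to 0.0676).

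**Figure D5:**
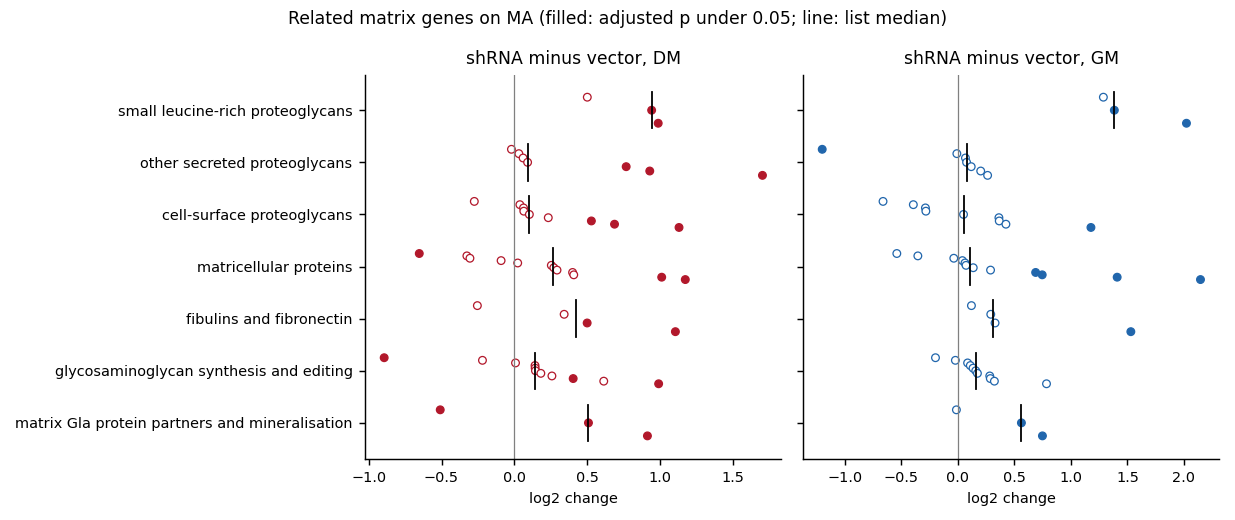
Log2 change with the shRNA in DM (left) and GM (right) of the 49 tested related genes on MA by list; each point is 1 gene, filled where adjusted p was under 0.05, and the line is the list median. The list medians span 0.09 to 0.94 in DM, and 0.05 to 1.38 in GM, and the filled point at -1.20 in GM is Col18a1.

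Of 4 tested fibulin and fibronectin genes, 2 rose in DM and 1 in GM. Beside the counts of this paragraph, 16.9% of all MA probe sets passed in DM and 6.56% in GM. Fibulin 1 (Fbln1) rose by 1.11 ± 0.14 and fibronectin (Fn1) by 0.50 ± 0.11 in DM (adjusted p = 0.000113 and 0.00504 in limma). Fibulin 5 (Fbln5), an elastic fibre protein, was the one that rose in GM (1.53 ± 0.14, adjusted p = 1.58e-05). It averaged 374 ± 30.27 in shRNA cells and 120.7 in vector cells in GM, while in DM it had 494 ± 43.85 in shRNA cells and 592.4 ± 57.48 in vector cells (SD, n = 3). Its shRNA effect was lower in DM than in GM by 1.79 ± 0.19 (adjusted p = 5.83e-05 in limma). Among 11 enzymes of glycosaminoglycan synthesis and editing, 2 rose and 1 fell in DM and 0 passed in GM by limma. Csgalnact1, which starts chondroitin chains, rose by 0.99 ± 0.17 (adjusted p = 0.00113), and Glce, an epimerase of heparan sulfate, fell by 0.89 ± 0.14 (adjusted p = 0.000574). Ext1, a heparan sulfate polymerase, rose by 0.40 ± 0.13, a call lost on leaving out any of 10 single arrays (0.31 to 0.42, adjusted p = 0.0557 to 0.175). Of 3 tested genes linked to matrix Gla protein or mineralisation, the vitamin K reductase Vkorc1 rose in DM by 0.51 ± 0.10 (adjusted p = 0.00331 in limma), and its GM rise was 0.56 ± 0.10 (adjusted p = 0.00527). Bmp4 rose in DM (0.91 ± 0.18, adjusted p = 0.0026) and in GM (0.75 ± 0.18), the GM call being lost on leaving out any of 4 GM arrays, shRNA replicates 2 and 4 and vector replicates 1 and 3 (0.55 to 0.79, adjusted p = 0.0544 to 0.104). Ank, a pyrophosphate transporter, fell in DM by 0.51 ± 0.10 (adjusted p = 0.00186).

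Between media, 7 related genes rose and 14 fell in DM in shRNA cells, and 10 rose and 17 fell in vector cells, of 49 tested, beside the 33.9% of all MA probe sets that passed in shRNA cells and the 49.3% in vector cells. Thbs1 (-1.999 ± 0.13 in shRNA and -0.95 ± 0.13 in vector cells) and Ccn1 (-1.68 ± 0.13 in shRNA and -1.31 ± 0.13 in vector cells) fell in both, and Sparcl1 rose in both (1.41 ± 0.27 in shRNA and 0.97 ± 0.27 in vector cells), with GM signals of 1.556 to 3.199, under the pseudocount. Sparcl1 passed the filter through DM arrays alone, and the size of its change depends on the pseudocount. Bmp4 fell by 2.08 ± 0.18 in shRNA and 2.25 ± 0.18 in vector cells. Col18a1 rose in DM in shRNA cells (0.74 ± 0.12) and fell in vector cells (-2.16 ± 0.12). In limma the highest adjusted p of these 10 values was 0.00804, that of Sparcl1 in vector cells.

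The target and the cell identity were checked on the same MA arrays. Ddx5 averaged 326 ± 40.75 in shRNA cells and 540.8 ± 132.8 in vector cells in DM (-0.68 ± 0.15, adjusted p = 0.00677 in limma) and 372 ± 18.87 in shRNA cells and 464.3 ± 38.13 in vector cells in GM (SD, n = 3), where the change of -0.31 ± 0.15 did not pass although the arrays did not overlap. Myod1 and desmin (Des) were at 1163 or more on every array, and Myog averaged 5222 in DM and 60.94 in GM in shRNA cells, and 6860 in DM and 77.82 in GM in vector cells. The summed signal of 7 myoblast and myotube markers was 15149 to 17060 in shRNA cells and 18669 to 27764 in vector cells in DM, and 3119 to 3611 in shRNA cells and 4082 to 4477 in vector cells in GM. Such sums follow their brightest probe sets, and the members differed: in DM Des, Myh3 and Ckm fell and Cdh15 rose (0.51 ± 0.14), and in GM Ckm and Cdh15 fell. Of 6 fibroblast markers 5 were on the array and Tcf21 was under 30 throughout. Their summed signal was 759.3 to 879.6 in shRNA cells and 519 to 654.4 in vector cells in DM, and 760.1 to 1025 in shRNA cells and 524.5 to 696.8 in vector cells in GM. Of the 3 tested, 1 passed in each medium, Pdgfrb in DM (0.82 ± 0.18) and Pdgfra in GM (1.23 ± 0.28). Pdgfra reached 30 on the shRNA arrays of GM alone and passed the filter through them. The part of either list in the changes of Prelp, Fbln7, Fndc1 and Sulf2 was not tested.

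In GM, where Thbs2 was high with the shRNA, several other marker sums did not overlap between constructs, and others did. Osteoblast sums overlapped (82.62 to 156.2 in shRNA and 76.31 to 179.6 in vector cells). So did those of smooth muscle (7380 to 10110 and 8291 to 9196, in that order) and endothelium (73.48 to 87.78 and 60.63 to 94.59). The share of all probe sets without overlap is not given, so nothing is read from the separation. Adipocyte markers, 5 on the array, summed to 464.9 to 578.4 in shRNA cells and 305.3 to 366 in vector cells, with Adipoq and Fabp4 under 30 on all arrays. Of the 3 tested only Lpl passed, at a mean of 178 in shRNA cells and 35.87 in vector cells, while Pparg (0.41 ± 0.32) and Cebpa (0.25 ± 0.15) did not. Cartilage markers summed to 167.3 to 189.6 in shRNA cells and 125.1 to 133.6 in vector cells, tendon markers to 76.23 to 93.45 in shRNA cells and 60.11 to 68.96 in vector cells, and macrophage markers to 179.5 to 230.1 in shRNA cells and 137.1 to 173.7 in vector cells. No tested member of these last lists passed in GM by limma, and Matn3, Tnmd, Ptprc and Itgam were under 30 on all arrays. The part of these lists in the Thbs2 change was not tested. In such bulk RNA, fewer cells of a type and less RNA per cell cannot be told apart. The log2 ratio of 3' to 5' control probe sets, a measure of RNA integrity, differed by 0.007 between constructs in DM, by -0.046 in GM, and between DM and GM by -0.04 in shRNA and -0.093 in vector cells, and its part was not tested. The mean correlation of an array with its own group was 0.951 for vector replicate 3 of DM and 0.962 to 0.983 for the other MA arrays, and 0.825 for vector replicate 2 of DM and 0.835 to 0.886 for the other MB arrays. Without vector replicate 3 of DM, the changes with the shRNA in DM were 2.10 for Prelp, 1.46 for Fbln7, 1.32 for Fndc1, 1.28 for Sulf2 and 0.89 for Mgp, and all 5 passed.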

How the data were processed

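Each deposited value is an intensity, 1 for every probe set on an array, on a linear scale. MAS5 is the tool in the submitters' processing notes, and its settings were not stated there. The values were already scaled: the mean without the outer 2% at each end was 149 to 149.3 on MA and 148.6 to 149 on MB arrays. Groups and replicate numbers came from titles. Symbols came from GEO's platform annotation, of which the mouse RefSeq table (GRCm38.p6) changed 0; 64 control probe sets per design were left out. Of the rest, 14367 MA and 19303 MB probe sets reached a signal of 30 in at least 3 of 12 arrays. On log2(signal + 15), 4 group means were fitted per design with limma 3.58.1 (R 4.3.3), using eBayes with a mean-variance trend, 8 residual degrees of freedom and Benjamini-Hochberg adjustment at 0.05 per contrast. The median residual SD was 0.214 on MA and 0.523 on MB, and the number of arrays limits the precision. The fit was tested on simulated data with changes placed in brighter probe sets only, so that test does not cover the dim members. A gene was led by its probe set with the highest mean signal.

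The members and lists were chosen with earlier results of these data known. The rule for names took every member with all its probe sets, up to 3 rising and 3 falling related genes per list and contrast, the 2 most alike genes per member, and Ddx5, Myod1, Des, Myog and Myh3; of the related genes some are given only in counts. Alternatives changed the pseudocount, filter, trend, normalization, probe set, arrays in the fit and a block for the replicate number.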

Additional observations from a re-analysis of the deposited data

Results flagged for a closer look

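For 3 of the genes the effect of the shRNA differed between the media by the test of the difference itself, in limma over all MA probe sets. The shRNA effect on Fbln7 was lower in DM than in GM by 1.21 on the log2 scale (-1.209, adjusted p = 0.012), on Thbs2 by 1.15 (-1.155, adjusted p = 0.004), and on Mgp it was higher in DM by 1.17 (1.173, adjusted p = 0.005). All 3 differences passed under each alternative fit of these leading probe sets. The other MA probe set of Thbs2 did not pass for the difference (-0.58 ± 0.34). The genes were chosen with earlier results known, so these are descriptions. Groups of 3 arrays were too small for the outlier check of single values.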

How the results depend on the processing

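On MA the member counts kept their side under every alternative run, within 1.5 times; leaving out 1 array gave 5 to 6 genes with the shRNA in DM, 6 in GM, 5 to 8 between media in shRNA cells, 4 in vector cells and 3 for the difference between media. On MB, where the 1 called gene is Sulf2, limma's eBayes without a trend gave 0 with the shRNA in DM, 0 in GM and 0 between media in vector cells, and the other probe set of a gene gave 0 with the shRNA in DM and 0 in GM. The GM count on MB was also 0 with no filter and 0 with the replicate block, and 0 to 1 on leaving out arrays. Between media in shRNA cells MB gave 1 with a pseudocount of 50, 1 with quantile normalization, and 0 to 1 on leaving out arrays. For related genes the count for the difference between media was 6 to 11 on leaving out arrays, against 10 with all, the 6 being without shRNA replicate 2 of DM or vector replicate 3 of GM. Of 3297 single values under alternatives, 3071 kept their side of the threshold, 204 lost the call, 22 gained it and 0 called values changed sign; 44 changed sign with neither value past the threshold. Over all probe sets, fitting only the 2 groups compared gave 1573 calls with the shRNA in DM on MA, against 2430, and 101 on MB, against 226. Without a trend MB gave 19 calls in DM, 9 in GM (53 with one), 527 between media in shRNA cells (936) and 0 for the difference (75). Quantile normalization gave 102 calls in GM and 115 for the difference on MB. On MA the GM count was 1467 without vector replicate 3 of DM, against 942, and 409 to 551 without some single GM arrays. Residuals of same-numbered arrays correlated at -0.139 to 0.293 on MA, over 0.1 in 6 of 13 pairs, and those of other pairs at -0.277 to 0.204; on MB the ranges were -0.0391 to 0.0698 and -0.0638 to 0.0741. On MA 7 of 12 arrays correlated best with their own number, and on MB 5 of 12. Since not every pair was over 0.1 and no label ties the numbers, they were not taken as pairs. The replicate block gave 6, 6, 4, 6 and 3 member genes on MA with the shRNA in DM, in GM, between media in vector cells, in shRNA cells and for the difference. With the block the leading Bgn probe set passed in DM (0.375, adjusted p = 0.0381 in limma), and the calls of Prelp (-0.54, adjusted p = 0.102) and the dimmer Thbs2 probe set (-0.645, adjusted p = 0.0833) between media in shRNA cells and of Sulf2 in GM on MB (0.96, adjusted p = 0.0611) were lost. Among named related genes it ended the shRNA calls of Ext1 in DM and Bmp4 in GM. Without a trend the MA probe set of Dcn passed with the shRNA in DM (adjusted p = 0.0321 in limma). The cause of these shifts was not tested. Dim signals near the pseudocount limit Dcn, Lum, Postn in GM and the dimmer Prelp probe set; the Postn change between media in vector cells was 1.32 to 2.64 over the alternatives.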
